A study of Mus musculus with 10 samples.

Results

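The Hox genes encode homeodomain transcription factors and lie in 4 clusters. They were chosen by symbol alone, as mouse protein-coding genes named Hoxa, Hoxb, Hoxc or Hoxd followed by a number. The 38 genes described here comprise 10 of the HoxA cluster, 10 of HoxB, 9 of HoxC and 9 of HoxD, among 21883 protein-coding genes of the autosomes, X and Y. The naming rule uses no measured value, but the set was chosen with earlier results of these data known.

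Trimethylation of lysine 27 of histone H3 (H3K27me3) was profiled by chromatin immunoprecipitation and sequencing in macrophages grown from C57BL/6 mouse bone marrow. All cultures received 20 ng/ml M-CSF, the macrophage growth factor, for 7 days. M0 cells were then left unstimulated, M1 cells received LPS (20 ng/ml) with interferon-gamma (50 ng/ml) for 24 h, and M2 cells received IL-4 (20 ng/ml) for 24 h. Every group carried the floxed allele Eif2ak3 fl/fl, also the one called wild type (WT). The knockout (KO) genotype is Eif2ak3 fl/fl x LysMcre, in which the lysozyme M gene, active in myeloid cells, drives Cre recombinase to delete Eif2ak3, which encodes PERK, a kinase of the unfolded protein response. Of the 10 libraries, 2 are from M0 (1 of each genotype), 4 from M1 and 4 from M2 (2 of each genotype in either state), and the series calls the repeated M1 and M2 samples biological replicates. The spread between cultures is what the p-values below rest on. M0 has no replicate within a genotype, so its values are given without a test. The H3K27me3 cover of Eif2ak3 itself was 0% in all 10 libraries, which does not test the deletion.

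H3K27me3 is placed by the methyltransferase of Polycomb repressive complex 2 and marks silent developmental genes. The Hox clusters are the classical Polycomb targets: in the embryo their genes are switched on in the order in which they stand, low-numbered genes in anterior tissue and high-numbered genes in posterior tissue, and the mark is lost where a gene becomes active. In the blood lineage, Hoxa9, Hoxa10 and Hoxb4 are known from stem and progenitor cells, and their expression falls as cells mature. Each cluster also holds microRNA genes, of the miR-10 and miR-196 families.

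The microRNAs are shown first because the gene of miR-10a was the only 1 of the 6 Hox cluster microRNA genes looked at that lay outside called regions, although its product differs from that of miR-10b at 1 position. All 6 genes were matched by name in the RefSeq table (GRCm38.p6, the mm10 build). The mature sequences run 5′ to 3′ and the capitals mark the seed, bases 2 to 8, which pairs with target RNAs.
miR-10a-5p: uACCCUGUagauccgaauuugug
miR-10b-5p: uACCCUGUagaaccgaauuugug
miR-196a-5p: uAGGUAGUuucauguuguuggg
miR-196b-5p: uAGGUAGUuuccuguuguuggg
The pair miR-10a and miR-10b share the seed ACCCUGU and differ by U12A, where the base of miR-10a stands first and positions count from 1 at the 5′ end. Mir10a lies in HoxB (mature sequence at chr11:96317186-96317208, plus strand) and Mir10b in HoxD (chr2:74726074-74726096, plus strand). The miR-196 sequences share the seed AGGUAGU. Mir196a-1 lies in HoxB (chr11:96265187-96265208, plus strand), Mir196a-2 in HoxC (chr15:102973365-102973386, plus strand) and Mir196b in HoxA (chr6:52230129-52230150, minus strand). The cover of Mir10a was 0% in all 10 libraries. The cover of Mir10b, Mir196a-1, Mir196a-2, Mir196b and Mir615, the last in HoxC, was 100% in all 10.

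Promoter windows, 250 bases before to 50 after a gene's start, were matched in the RefSeq table for 22 of the 38 Hox genes, with 24 windows. The windows of Hoxb4 and Hoxa5 are printed because these genes lay at or beyond an edge of called regions. The window of Hoxb1, chosen after its values were seen, is printed as a called window of the same cluster as Hoxb4 with fewer CpG dinucleotides. They run 5′ to 3′ on each gene's strand, and the capitals mark CpG.
Hoxb4: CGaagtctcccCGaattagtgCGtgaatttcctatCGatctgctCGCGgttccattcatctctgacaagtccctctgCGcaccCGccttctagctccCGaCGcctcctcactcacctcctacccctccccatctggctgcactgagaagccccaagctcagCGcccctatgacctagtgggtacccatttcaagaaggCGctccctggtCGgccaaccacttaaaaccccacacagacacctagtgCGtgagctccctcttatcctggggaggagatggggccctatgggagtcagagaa
Hoxa5: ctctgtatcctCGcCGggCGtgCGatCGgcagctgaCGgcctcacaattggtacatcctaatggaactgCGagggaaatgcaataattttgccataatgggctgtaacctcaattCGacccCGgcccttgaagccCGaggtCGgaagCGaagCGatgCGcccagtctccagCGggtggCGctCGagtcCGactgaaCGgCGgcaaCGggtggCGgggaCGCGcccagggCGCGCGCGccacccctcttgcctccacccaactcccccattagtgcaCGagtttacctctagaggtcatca
Hoxb1: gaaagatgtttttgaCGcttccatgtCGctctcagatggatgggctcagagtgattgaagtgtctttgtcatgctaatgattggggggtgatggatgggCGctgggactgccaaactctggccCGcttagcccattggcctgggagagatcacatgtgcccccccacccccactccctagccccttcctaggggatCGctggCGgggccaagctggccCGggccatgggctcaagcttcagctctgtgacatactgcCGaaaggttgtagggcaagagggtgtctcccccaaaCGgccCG
The windows stand at chr11:96318017-96318316 (plus strand) for Hoxb4, chr6:52204538-52204837 (minus strand) for Hoxa5 and chr11:96365508-96365807 (plus strand) for Hoxb1. A window counted as called when at least 50% of it lay under regions. The Hoxb4 window was called in 0 libraries, and the other 23 windows in all 10, where 17.1% of 21262 windows of protein-coding genes were called in all 10. The motif CG, which reads the same on both strands, was searched and counted in each window. It occurred 14 times in the Hoxb4 window, 29 times in the Hoxa5 window and 10 times in the Hoxb1 window. The Hox windows held between 4 and 45 CpG with a median of 14.5, against a median of 13 over all windows, and 94.6% of the 32851 windows in the table hold at least 1. The uncalled Hoxb4 window thus stood near the middle of the Hox windows in CpG number, with 58.0% G and C where the median Hox window had 57.7%.

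Libraries held 12.6 to 20.9 megatags (units of 1e6 tags), of which 41.3% to 64.1% lay in called regions. That share was 62.6% and 64.1% in M0, 45.04% to 48.5% in M1, 41.3% and 56.5% in WT M2, and 61.0% and 61.3% in KO M2. The estimated fragment length was 352 and 372 bp in M0 and 178 to 190 bp in the other 8 libraries. WT replicate 1 stood apart on the X chromosome in M1 and in M2, with 31.3 and 52.9 Mb under regions there against less than 1 Mb in each of the others. The cause was not tested. Tags of these X regions count in the share of tags in regions. Scaling to the tags inside regions, used below, is therefore not a scaling by autosomal tags alone. Of 10 macrophage marker genes, among them Csf1r, Itgam and Spi1, 8 were covered in no library. Cebpa was covered in WT M0 and in no other library. Markers of other cells were mixed. Covered in all 10 libraries were 2 of 6 T cell markers (Cd3e and Cd8a), 2 of 5 B cell markers, 1 of 4 granulocyte markers (Mpo), 1 of 4 stromal markers (Col1a1) and 0 of 4 erythroid markers, where 8.74% of all protein-coding genes were. Covered in none were 2 T cell, 2 B cell, 1 granulocyte, 2 stromal and 3 erythroid markers.

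Nearly every Hox gene lay under H3K27me3 in every library. A gene is called covered here where called regions took up 50% or more of its body. By that measure 35 of the 38 Hox genes were covered in all 10 libraries, where 8.74% of all protein-coding genes were. Between 35 and 37 Hox genes were covered in each library, with the lowest number in WT M2 replicate 1. The whole body was covered in all 10 libraries for 28 Hox genes, against 3.51% of all genes. The 28 include Hoxa6 to Hoxa13, known for Hoxa9 and Hoxa10 from blood progenitors, as well as Hoxb5 to Hoxb9, Hoxb13, Hoxb1 and Hoxb2, 7 of the 9 Hoxc genes and 7 of the 9 Hoxd genes. The exceptions below 50% in at least 1 library were Hoxb4, Hoxb3 and Hoxa5.

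**Figure D1:**
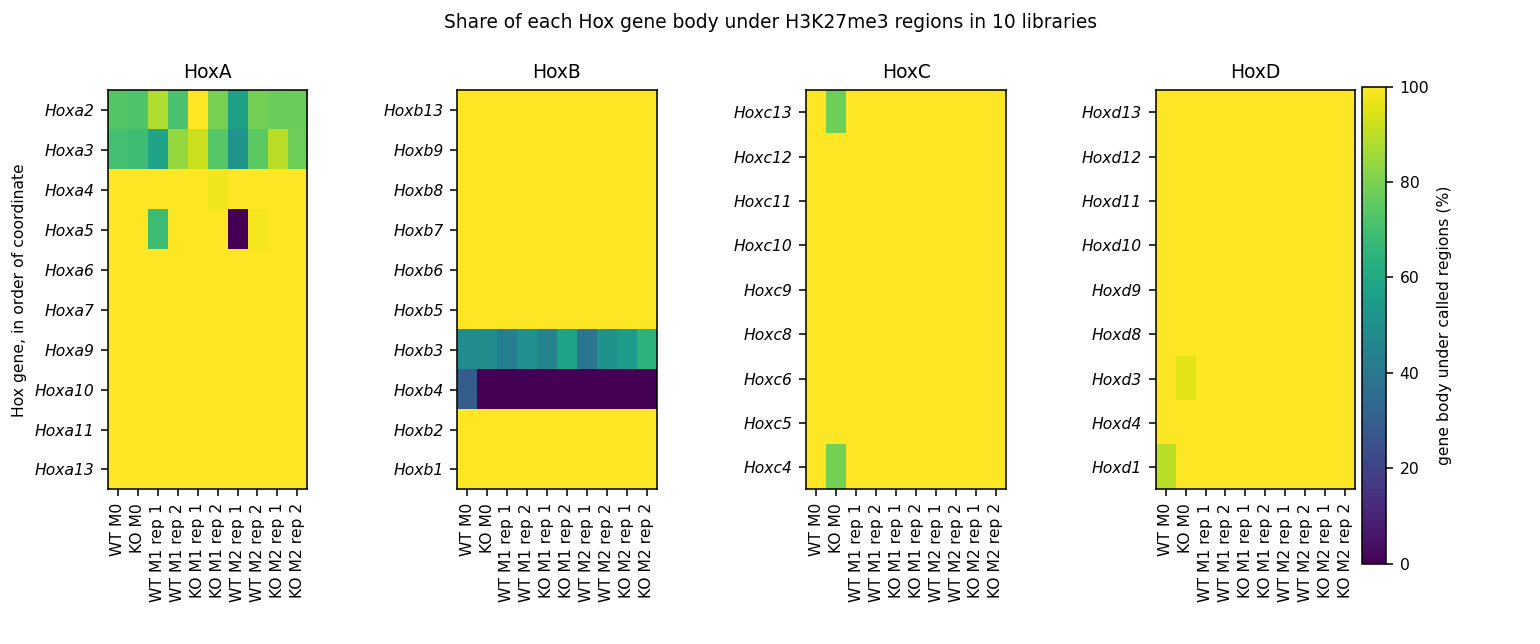
Share of each Hox gene body (rows, in order of coordinate within each cluster) under called H3K27me3 regions in each of the 10 libraries (columns), on a colour scale from 0 to 100%. Hoxb4 is dark in 9 libraries and at 29.7% in WT M0, Hoxb3 is intermediate throughout, and Hoxa5 is at 0% in WT M2 replicate 1.

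Hoxb4, known from the self-renewal of blood stem cells, had 29.7% of its body covered in WT M0 and 0% in the other 9 libraries. In WT M0 a called piece of 1.0 kb lay inside the gene. Its paralogues in the other clusters, Hoxa4, Hoxc4 and Hoxd4, were each covered by at least 79.2% of their bodies in every library. Hoxb4 was thus the only Hox gene that was covered in none of the 10 libraries.

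The uncalled stretch around Hoxb4 (chr11:96318267-96321638) was found in every library and had a median length of 17.4 kb. It ran for 16.1 kb in WT M0, counting across the called piece, and for 16.02 kb in KO M0. In M1 it ran for 21.3 and 17.7 kb in WT and for 20.0 and 17.2 kb in KO. In M2 it ran for 23.2 and 20.1 kb in WT and for 15.6 and 12.47 kb in KO. The lengths overlapped between M1 and M2. The KO M2 stretches were shorter than those of WT M2, and KO M2 replicate 2 had the shortest of all 10 libraries. Both points leaned on regions with few tags per kb. With such regions dropped, a choice made after the data were seen, the KO M2 stretches ran for 19.9 and 19.3 kb. Those of WT M2 stayed at 23.2 and 20.1 kb, so KO M2 was then only narrowly shorter. The shortest stretch was then that of WT M0, at 16.1 kb. The part of the share of tags in regions in these lengths was not tested.

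The stretch was bounded by regions on both sides, and the edge towards Hoxb5 varied less in position between libraries. The positions of the low-coordinate edge, between Hoxb5 and Mir10a, spread over 2596 bp among the 10 libraries, and those of the high-coordinate edge, inside Hoxb3, over 8313 bp. The low edge lay 1.23 to 3.82 kb before Hoxb4 and the high edge 7.71 to 16.02 kb beyond it. The part outside the flanking regions in all 10 libraries was 12.3 kb long (chr11:96317040-96329347). It held Mir10a, the whole of Hoxb4 and part of Hoxb3.

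**Figure D2:**
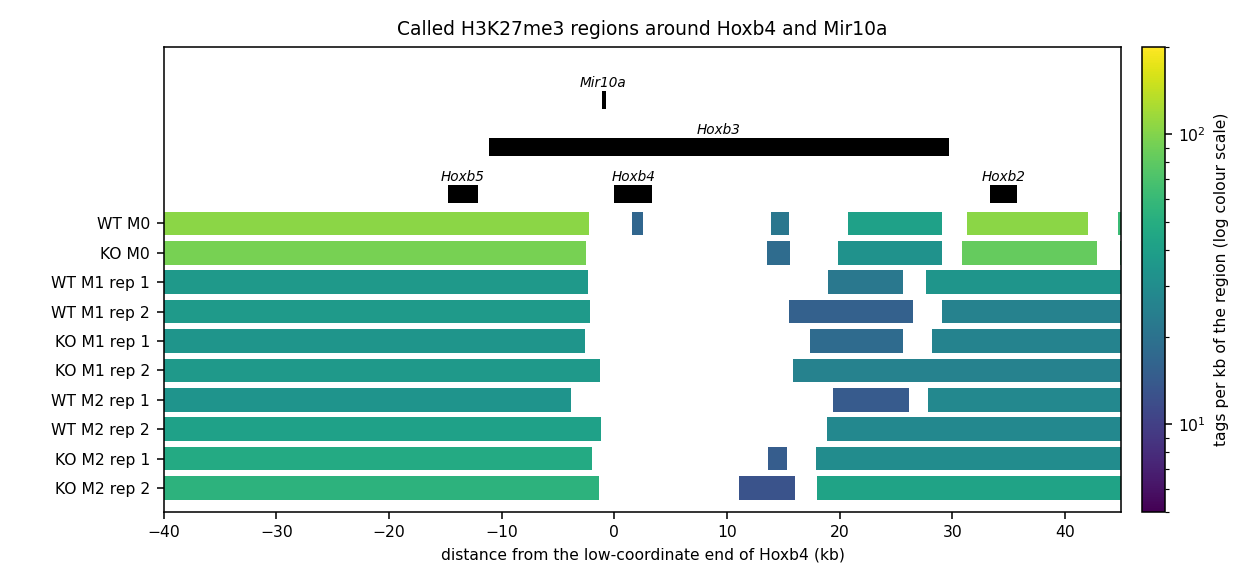
Called H3K27me3 regions (coloured bars, 1 row per library) by distance in kb from the low-coordinate end of Hoxb4, coloured by tags per kb on a log scale, with the gene bodies of Hoxb5, Hoxb4, Hoxb3, Hoxb2 and Mir10a in black. In every library the bars stop 1.23 to 3.82 kb before Hoxb4 and resume 7.71 to 16.02 kb after it, with 1 short bar inside Hoxb4 in WT M0.

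Hoxb3 (chr11:96307101-96347930) has a long body that overlaps Hoxb4, so the uncalled stretch counts against both genes. Its cover was 48.6% in WT M0 and 48.9% in KO M0. In M1 it was 42.9% and 50.3% in WT and 44.6% and 58.0% in KO. In M2 it was 39.2% and 50.9% in WT and 55.4% and 64.8% in KO. The genotypes overlapped in M1 and did not in M2, where KO stood above WT. The share of all genes with that order of cover in M2 was not counted. Hoxb3 passed 50% in 5 of the 10 libraries.

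In HoxA the mark changed in density between Hoxa4 and Hoxa6, and Hoxa5 stood at that edge. Hoxa5 (chr6:52201754-52204587) was covered by 100% in both M0 libraries. In M1 its cover was 69.1% and 100% in WT and 100% in both KO libraries. In M2 it was 0% and 98.6% in WT and 100% in both KO libraries. The library at 0%, WT M2 replicate 1, also had the lowest share of tags in regions (41.3%), and the part of that share in this value was not tested. In that library the region next to Hoxa5 began 0.175 kb before Hoxa6, within the Hoxa5 promoter window printed above, which was still called.

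The region holding Hoxa6 to Hoxa13 began between 0.175 and 10.8 kb before Hoxa6, with a median of 4.41 kb, and was 93.4 to 154 kb long. Over the span from Hoxa6 to Hoxa13 the tag density, that is normalised tags per kb with the tags of a region spread evenly over it, was 154 and 155 tags per kb in M0. In M1 it was 61.2 and 49.7 tags per kb in WT and 51.1 and 56.8 in KO. In M2 it was 50.4 and 71.2 tags per kb in WT and 77.4 and 96.7 in KO. From Hoxa2 to Hoxa4 the density was 26.99 and 20.5 tags per kb in M0, 11.02 to 15.5 in M1 and 8.67 to 21.1 in M2. The ratio of the first span to the second was between 3.31 and 7.57 in the 10 libraries, so that the high-numbered genes carried the denser mark in each of them.

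Hoxa2, the gene of the second branchial arch and the lowest in mean density of the HoxA genes, was covered by 57.2% to 100%, and Hoxa3 by 51.8% to 92.4%. The lowest cover of both was in WT M2 replicate 1 and the highest in KO M1 replicate 1. Hoxa3 (chr6:52169059-52213067) has a body of 44.0 kb that runs across Hoxa4, Hoxa5 and Hoxa6, so its cover mixes both densities. Hoxa4 was covered by 97.97% in KO M1 replicate 2 and by 100% in the other 9 libraries. The HoxA span from Hoxa2 to Hoxa13 had between 2 and 6 uncalled stretches of at least 0.5 kb per library, and its cover was 74.6% to 95.3%.

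HoxC was the most completely covered of the clusters. Its span from Hoxc13 to Hoxc4 (chr15:102921131-103036856) was covered by 100% in 9 libraries and by 95.2% in KO M0, where Hoxc13 was at 78.0% and Hoxc4 at 79.2%. In 9 libraries 1 region held all 9 Hoxc genes, so these genes then share 1 tag density and are not separate measurements. That region ranked 1st or 2nd by tags among all regions of the library in each of the 8 M1 and M2 libraries.

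HoxD (Hoxd13 to Hoxd1, chr2:74668225-74765142) was covered by 100% in 7 libraries, by 92.7% in WT M0, by 90.4% in KO M0 and by 97.8% in KO M2 replicate 2. In both M0 libraries an uncalled stretch of 6.84 and 7.66 kb lay between Hoxd3 and Hoxd1. Hoxd1 was at 89.8% in WT M0 and Hoxd3 at 95.6% in KO M0. In HoxB the whole 173.9 kb between Hoxb13 and Hoxb1 (chr11:96194316-96368254) was covered by 81.5% to 91.7%, with the Hoxb4 stretch as the longest uncalled part in the 9 libraries in which no piece of it was called.

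**Figure D3:**
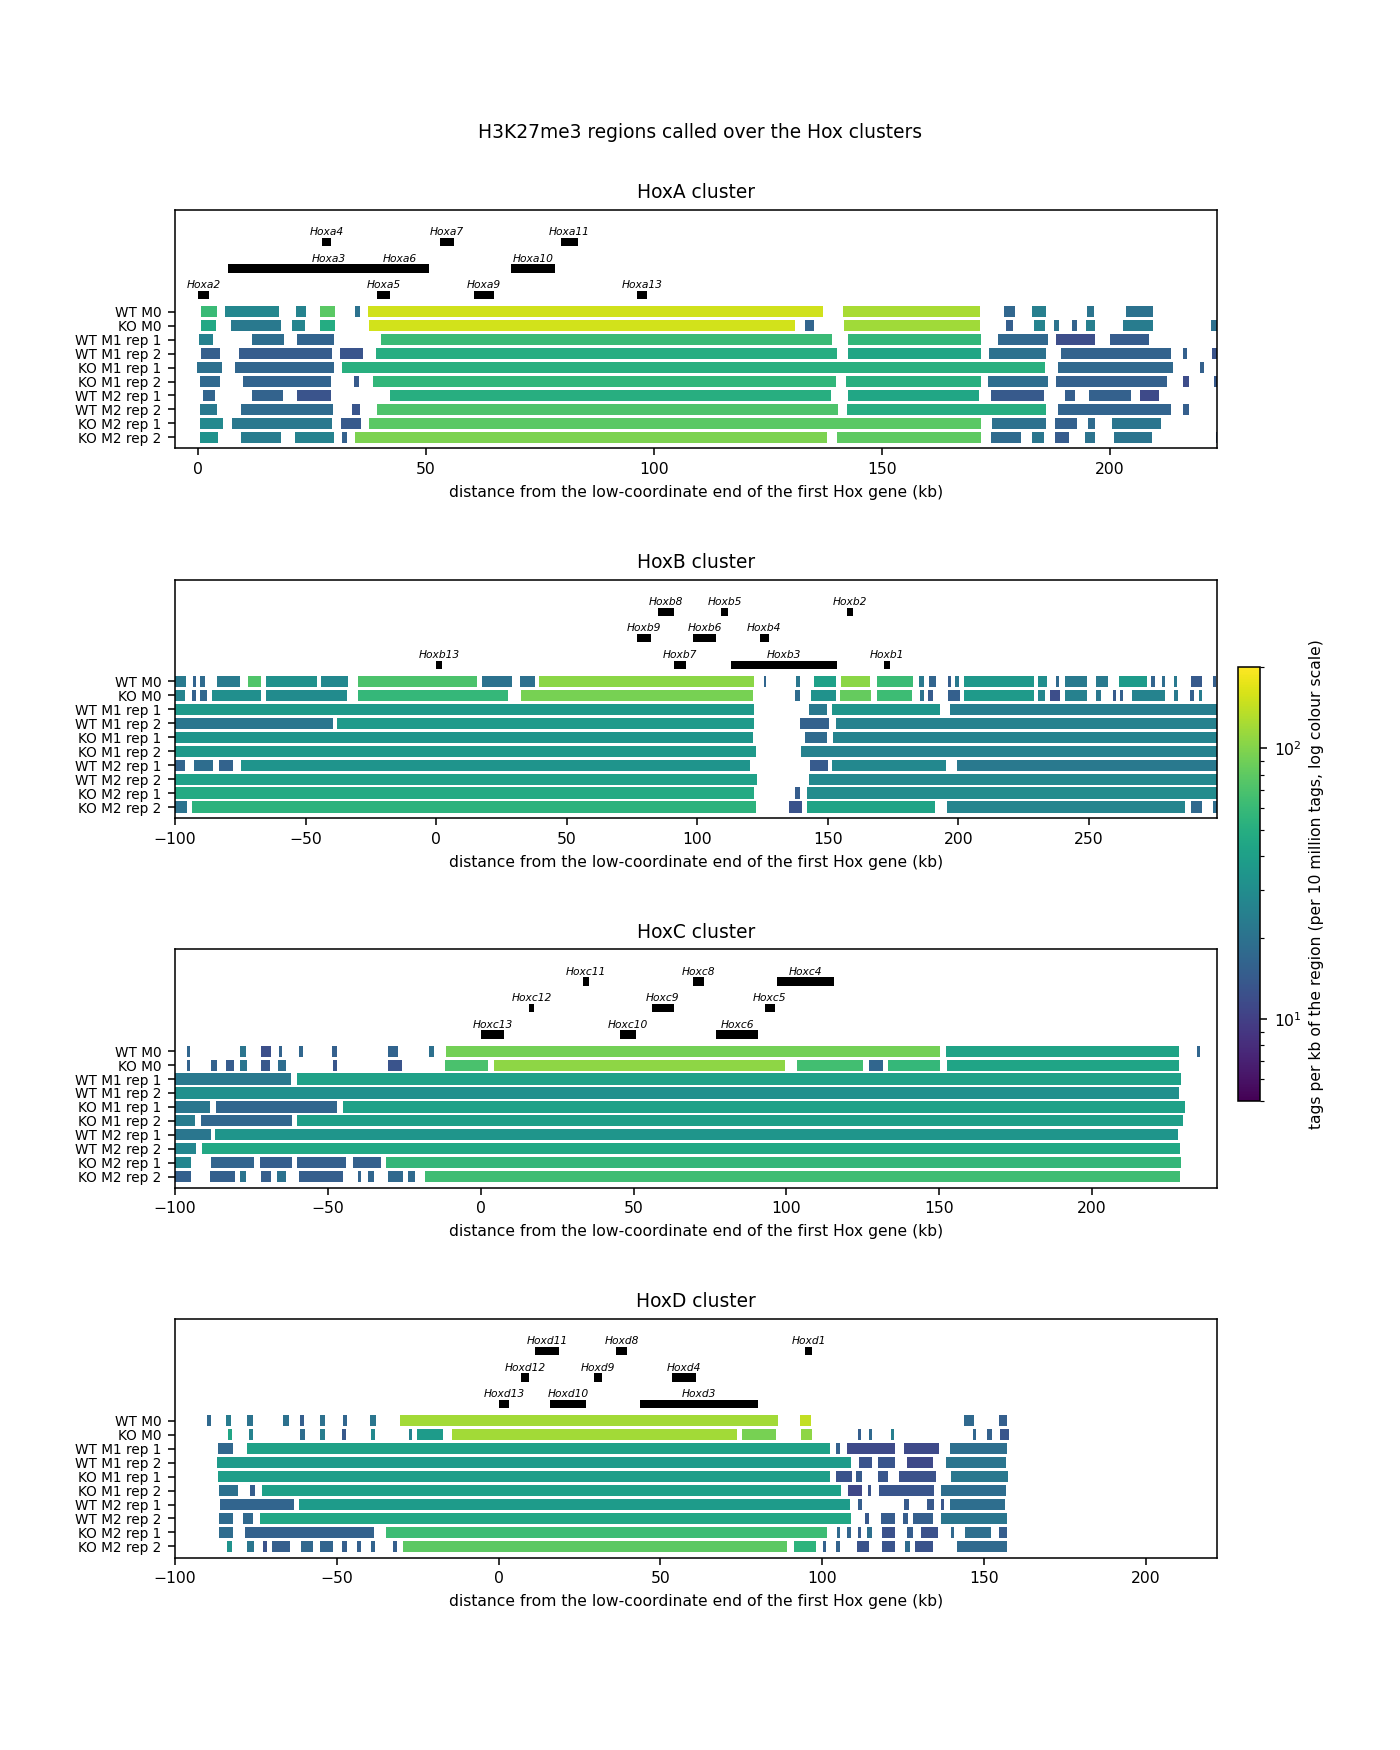
Called H3K27me3 regions over the 4 Hox clusters (coloured bars, 1 row per library) by distance in kb from the low-coordinate end of the first Hox gene, coloured by tags per kb on a log scale, with Hox gene bodies in black. The HoxA map starts at Hoxa2. The right-hand end of the HoxC regions stands 112.5 to 114.6 kb beyond Hoxc4 in all 10 libraries once gaps of up to 2500 bp are joined, while the left-hand ends of HoxC and HoxD differ between libraries.

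The mark ran past the outermost Hox genes, with some ends fixed and others not. Regions were joined here into runs across gaps of up to 2500 bp. On the Hoxc4 side the HoxC run ended 112.5 to 114.6 kb beyond the gene in all 10 libraries. On the Hoxc13 side it reached 11.4 and 11.7 kb in M0, between 196.1 and 196.9 kb in the 4 M1 and both WT M2 libraries, and 88.1 and 18.1 kb in KO M2. Beyond Hoxd13 the HoxD run reached 30.5 and 14.5 kb in M0, between 76.9 and 87.1 kb in M1, 86.1 and 79.1 kb in WT M2, and 34.6 and 32.7 kb in KO M2. The KO M2 ends beyond Hoxc13 and Hoxd13 thus stood nearer to the Hox genes than those of WT M2 and M1. The M0 ends stood nearer still with gaps joined in this way. HoxA and HoxB did not share this order. Beyond Hoxa13 the HoxA run reached 98.3 and 92.7 kb in KO M2, and 40.5 and 87.5 kb in WT M2. Beyond Hoxb13 the HoxB run reached 112.3 and 114.3 kb in KO M2, and 74.6 and 114.2 kb in WT M2.

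The order of ends was not tested. Within M2 alone, 2 libraries against 2 cannot give an exact two-sided permutation p below 0.333. The libraries with short runs at HoxC and HoxD were also those with the highest shares of tags in regions, 61.0% to 64.1% against 41.3% to 56.5%. The part of that share in the ends was not tested. Without joining, the end on the Hoxc4 side stood at 34.6 kb in WT M0 and 9.23 kb in KO M0 and did not move in the other 8 libraries. On the other side the HoxC run then reached 31.0 and 18.1 kb beyond Hoxc13 in KO M2 and 45.2 to 196.8 kb in the M1 and WT M2 libraries. For HoxD it reached 34.6 and 29.4 kb in KO M2, 61.5 to 87.1 kb in the M1 and WT M2 libraries, and 30.5 and 14.5 kb in M0, so that the WT M0 end was no longer nearer than both KO M2 ends. When gaps of up to 5000 bp were joined, HoxC kept the order (88.1 and 40.1 kb in KO M2), but the HoxD run of KO M2 replicate 1 reached 86.3 kb, within the range of WT M2.

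The homeobox neighbours shared the mark of their cluster, and most other neighbours did not. Evx1, the even-skipped homologue beyond Hoxa13, was covered by 100% in all 10 libraries, and Evx2, its counterpart beyond Hoxd13, by 91.0% to 100%. The region holding Evx1 ended 72.9 to 73.4 kb beyond Hoxa13 in 8 libraries and at 87.4 and 87.5 kb in KO M1 replicate 1 and WT M2 replicate 2. Of 24 neighbouring genes matched, Evx1, Evx2, Ttll6 and Calcoco2 were covered in all 10 libraries, Skap1 in 9, and 19 in none. The 19 include Skap2 and Hibadh beside HoxA and Cbx5 beside HoxC, at 0% in every library, and Lnpk and Mtx2 beside HoxD, at no more than 1.55% and 0.104%. Smug1, which stands just past the fixed HoxC end, was covered by 16.6% to 28.7%.

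Most homeobox relatives outside the clusters were covered like the Hox genes. Of 14 relatives of the Antennapedia class, 13 were covered in all 10 libraries, among them the ParaHox genes Gsx1, Pdx1 and Cdx2, the engrailed genes En1 and En2, and Mnx1. The exception was Meox2, a mesoderm gene, at no more than 2.86%. Of 9 TALE cofactors, which bind DNA together with Hox proteins, Meis3 was covered in all 10 libraries, at 67.4% to 100%, and the other 8 in none, a share near the 8.74% of all protein-coding genes. Pbx2 and Pknox1 were at 0% in every library, and Meis1 at 1.72% to 5.52%. Of 9 activators of Hox genes, Cdx1 and Cdx2 were covered by 100% in all 10 libraries. Kmt2a, which with Men1 and Psip1 keeps Hox genes active in blood progenitors, was at 0% in all 10, as were Men1, Psip1, Kmt2b and Dot1l. Cdx4, on the X chromosome, was covered in 4 libraries and reached 100% in the WT replicate 1 libraries of M1 and M2, which stood apart on that chromosome.

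The tag density over the 4 cluster spans was highest in M0 and, among stimulated cells, in KO M2. HoxA held 104 tags per kb in WT M0 and 102 in KO M0. In M1 it held 39.6 and 34.3 tags per kb in WT and 39.4 and 38.7 in KO. In M2 it held 31.4 and 47.4 tags per kb in WT and 54.8 and 68.4 in KO. The other clusters followed the same order: HoxD held 111 and 106 tags per kb in M0, 36.7 to 41.1 in M1, 37.1 and 44.97 in WT M2, and 62.9 and 75.7 in KO M2. HoxC held 91.7 and 96.7 tags per kb in M0, 31.3 to 40.7 in M1, 34.0 and 45.5 in WT M2, and 57.1 and 63.8 in KO M2. HoxB was the lowest, with 69.1 and 66.8 tags per kb in M0, 27.8 to 30.7 in M1, 27.3 and 33.8 in WT M2, and 38.8 and 46.1 in KO M2. Over all rows of the test below, the median log2 difference between KO and WT in M2 was 0.51, against 0.60 over the Hox genes. Both KO M2 libraries stood above all WT M2 and M1 libraries in each cluster, and how many of all rows had this order was not counted. Scaled to the tags inside regions, this order held for HoxA, HoxC and HoxD but not for HoxB. There KO M2 replicate 1 was at 33.4 tags per kb, against 34.7 in WT M2 replicate 1 and 34.8 in WT M1 replicate 2.

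Within clusters the density was most uneven in HoxA and HoxB. Hoxb5 to Hoxb9, trunk genes that lay within 1 region in each library and so share a value, held 106 and 93.6 tags per kb in M0, 34.0 to 36.9 in M1, 33.5 and 40.7 in WT M2, and 47.3 and 53.9 in KO M2. Hoxb4, at the other extreme of HoxB, held 4.92 tags per kb in WT M0 and 0 in the other 9 libraries. Hoxa2 held 44.4 and 33.2 tags per kb in M0, 10.7 to 21.9 in M1, 9.41 and 17.4 in WT M2, and 22.1 and 25.6 in KO M2. The stimulated states overlapped for Hoxa2, while both KO M2 values stood above both WT M2 values. As for the spans, how many of all rows had that order was not counted.

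In HoxC and HoxD nearly all genes had the value of their cluster. The lowest mean of HoxC was that of Hoxc4, which fell behind its neighbours in 1 library, KO M0, at 57.4 tags per kb where Hoxc8 had 107. The lowest mean of HoxD was that of Hoxd1, which differed from Hoxd13 in 3 libraries. In WT M0 Hoxd1 held 127 tags per kb and Hoxd13 held 119, in KO M0 they held 107 and 121, and in KO M2 replicate 2 they held 54.1 and 78.9. In the other 7 libraries Hoxd1 and Hoxd13 lay in the same region and shared its value.

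Set against the median region of the same library, the HoxC span was 2.26 to 5.24 times as dense and the HoxD span 2.65 to 5.75 times. HoxA stood at 2.31 to 5.55 times and HoxB at 1.91 to 3.62 times. The highest multiples of all 4 clusters were in M0, whose longer fragments cannot be told apart from the state. The difference between M0 and stimulated cells was not tested.

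**Figure D4:**
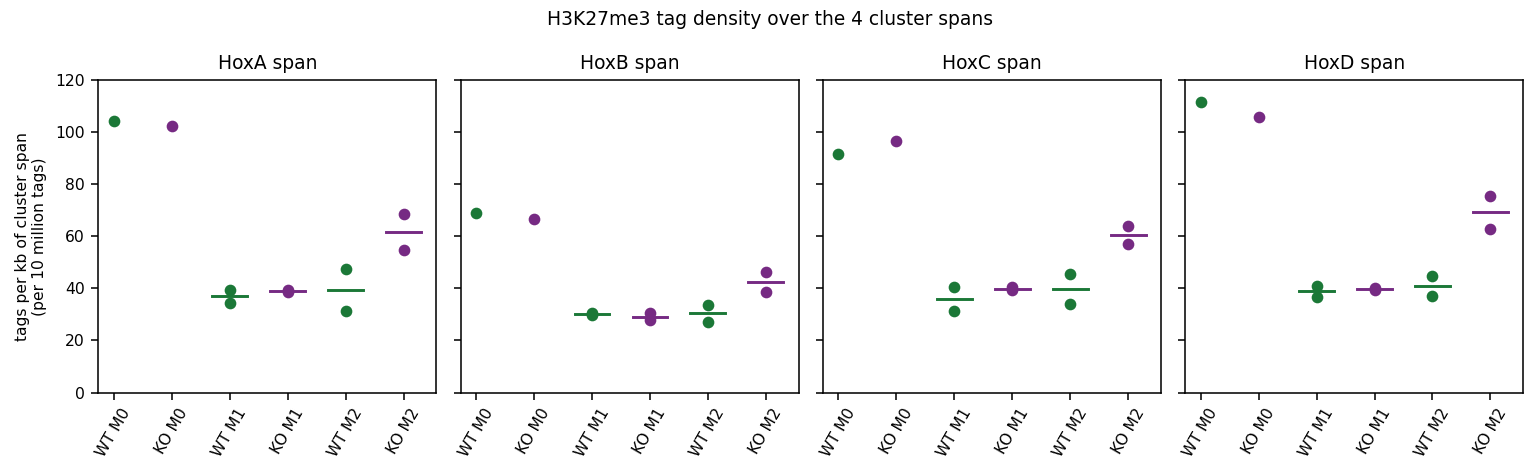
Tag density (normalised tags per kb of the cluster span) of the 4 Hox clusters, with 1 point per library, WT in green and KO in purple, and a bar at the mean of groups with 2 libraries. The M0 points are the highest, and the KO M2 points stand above the WT M2 and M1 points in each panel.

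The first comparison asks whether IL-4 and LPS with interferon-gamma leave different amounts of H3K27me3 at the Hox genes. No Hox gene passed the test between M2 and M1. The test was limma on log2(tags per kb + 1) over 7195 rows, fitted on the 8 stimulated libraries, with p-values adjusted by the Benjamini-Hochberg method over all rows. In that fit 10 rows were higher in M2 (0.139%) and 6 lower (0.0834%), and 0 of the 37 Hox genes tested were among them; 24 Hox genes had an unadjusted p below 0.05, as did 18.8% of all rows, and most of the 24 share 1 region value per cluster. Hoxb4, with no tags in the stimulated libraries, was not tested. The log2 difference was 0.35 for the HoxA span (95% interval -0.04 to 0.74), 0.26 for HoxB (-0.04 to 0.56), 0.36 for HoxC (0.01 to 0.71) and 0.43 for HoxD (0.13 to 0.72), with adjusted p of 0.287, 0.292, 0.258 and 0.241 by limma. The median over the 37 Hox genes was 0.36, where the median over all rows was 0.22. Hoxd13, with a log2 difference of 0.44, shared it with Hoxd3 to Hoxd12, and Hoxa13, with 0.40, shared it with Hoxa6 to Hoxa11. These differences were among the larger ones, and each belongs to a whole region and not to 1 gene.

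The result turned on either WT M2 library. Without replicate 1, 9 Hox genes were higher in M2, with 24.4% of all rows: Hoxa5 and the 8 genes from Hoxd3 to Hoxd13, which shared 1 log2 difference of 0.51. The HoxA and HoxD spans then passed the test (log2 difference 0.50 with adjusted p = 0.0416, and 0.49 with adjusted p = 0.0381, limma). Without replicate 2, Hoxa5 was lower in M2, by a log2 difference of -2.44 (adjusted p = 0.00939, limma), with 0.567% of all rows. In both fits WT M2 is 1 library, assumed to vary like the other groups.

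Scaled to the tags inside regions, the differences between M2 and M1 were 0.14 for HoxA, 0.05 for HoxB, 0.15 for HoxC and 0.22 for HoxD, with a Hox median of 0.15 against 0.06 for all rows. With tags also counted in whole windows closed at region ends, a choice added after the data were seen, they were 0.12, -0.02, 0.03 and -0.03 in the same order. These windows are 186.8 to 440.1 kb long, so much of them lies outside the spans of Hox genes.

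The second comparison asks whether loss of PERK changes H3K27me3 at the Hox genes. Over both stimulated states 0 of the 37 Hox genes passed the test, where 3 rows were higher in KO (0.0417%) and 0 lower. Their median log2 difference was 0.38 against 0.28 over all rows, and 18 had an unadjusted p below 0.05, as did 11.1% of all rows. Many Hox genes lie within 1 region and share its value, so they are not separate measurements. In M2 alone the Hox median was 0.60, where the median of all rows was 0.51. All 37 Hox genes had a positive difference, and the share of all rows with one was not counted. None of them passed: 8 rows were higher in KO (0.111%) and 2 lower (0.0278%), and the smallest adjusted p of a Hox gene was 0.188, with 26 unadjusted p below 0.05 where 25.5% of all rows had one. The HoxD span differed most, by a log2 difference of 0.74 (0.33 to 1.16), followed by HoxA at 0.65 (0.10 to 1.21), HoxC at 0.60 (0.11 to 1.097) and HoxB at 0.47 (0.04 to 0.89), each with adjusted p = 0.188 by limma. After each library was centred on its median row, the Hox median was -0.04 and that of all rows -0.13.

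In M1 the genotypes were close. No Hox gene passed, with 0 rows called over the whole table (118 with an unadjusted p below 0.05, 1.64%, none of them a Hox gene), and the Hox median was 0.03 against 0.05 for all rows. The span differences were 0.08 for HoxA (-0.47 to 0.64), -0.05 for HoxB (-0.48 to 0.37), 0.16 for HoxC (-0.33 to 0.65) and 0.03 for HoxD (-0.39 to 0.45). The difference between the 2 genotype effects, M2 less M1, was 0.57 for HoxA, 0.52 for HoxB, 0.44 for HoxC and 0.71 for HoxD, each with adjusted p = 0.542 by limma. Without WT M2 replicate 2, Hoxa5 passed that test, with 13.6% of all rows.

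WT M2 replicate 2 decided the M2 call. Without it 34 of the 37 Hox genes were higher in KO, with 47% of all rows, and the spans differed by 0.94 for HoxA, 0.62 for HoxB, 0.81 for HoxC and 0.88 for HoxD, with adjusted p of 0.0152 to 0.0272 by limma. The Hox genes again share region values within clusters and are not separate measurements. WT M2 is then the library with the lowest share of tags in regions alone. The spread thus comes from the other groups and is assumed to hold for WT M2. Over both states 21 Hox genes were then higher, with 33.9% of all rows. Without WT M2 replicate 1 the M2 differences fell to between 0.32 and 0.61, and no Hox gene passed. The share of tags in regions moved with these values, at 41.3% in WT M2 replicate 1, 56.5% in WT M2 replicate 2 and 61.0% and 61.3% in KO M2. Scaled to the tags inside regions, the M2 differences were 0.32 for HoxA (0.0063 to 0.63), 0.13 for HoxB (-0.13 to 0.40), 0.27 for HoxC (-0.02 to 0.56) and 0.41 for HoxD (0.13 to 0.69), with 0 Hox genes called and a Hox median of 0.27 against 0.24 for all rows. With the same scaling in the longer closed windows, they were 0.26 for HoxA (-0.025 to 0.55), 0.06 for HoxB (-0.13 to 0.25), -0.02 for HoxC (-0.21 to 0.17) and 0.04 for HoxD (-0.18 to 0.27).

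**Figure D5:**
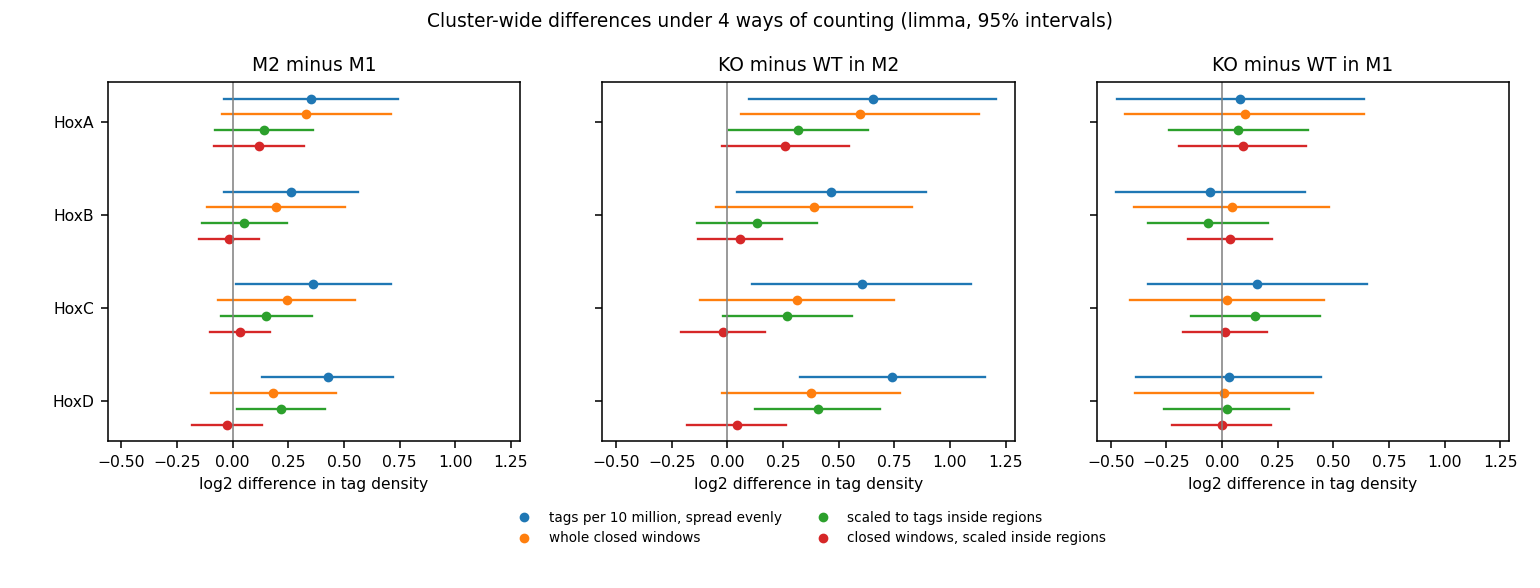
Log2 difference in tag density of the 4 Hox cluster spans (points, with 95% limma intervals as lines) between M2 and M1 and between KO and WT in M2 and in M1, under 4 ways of counting tags. In M2 the KO minus WT points move from 0.47 to 0.74 with tags as deposited to -0.02 to 0.26 with closed windows scaled to tags inside regions.

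No single Hox gene passed the test in M2 with all libraries in the fit. Hoxa5 had the largest M2 genotype difference, a log2 difference of 3.37 (-0.67 to 7.42, adjusted p = 0.223, limma), and it rests on WT M2 replicate 1, where no tags were counted over the gene. Its density there was 0 tags per kb, against 70.2 in WT M2 replicate 2 and 77.4 and 96.7 in KO M2. Hoxb3 differed by 0.78 in M2 (-0.02 to 1.58, adjusted p = 0.197, limma) and by 0.14 in M1, and Hoxa3 by 0.98 in M2 (0.24 to 1.73, adjusted p = 0.188, limma). Hoxb1 and Hoxb2, the hindbrain genes at the far end of HoxB, had the smallest M2 difference of the Hox genes, 0.34 (-0.21 to 0.88, adjusted p = 0.313, limma).

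Outside the clusters the listed genes gave no call in any of these comparisons. Of the 14 Antennapedia class relatives 0 passed in either direction, with a median log2 difference of 0.53 between KO and WT in M2 and 0.41 between M2 and M1. Of 6 TALE cofactors tested 0 passed, with medians of 0.32 and 0.05, and of 4 activators tested 0 passed, with medians of 0.28 and 0.26. The relatives, like the Hox genes, thus had a median near that of all rows between KO and WT in M2.

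Body cover gave no Hox gene that separated the groups. Over 8793 genes, 76 had higher cover in all 4 M2 libraries than in all 4 M1 libraries (0.864%) and 139 lower (1.58%), and 0 of the 37 Hox genes tested were among either. Over 9350 genes, 253 had higher cover in KO than in WT within each state (2.71%) and 59 lower (0.631%), and again 0 of the 38 Hox genes were among them. The exact two-sided permutation test cannot give a p below 0.0286 for state or 0.0278 for genotype. After Benjamini-Hochberg adjustment over all genes, p could fall below 0.05 only if most genes stood at that floor. The test therefore could not call single genes here, and the smallest adjusted p by it were 0.972 and 0.828. For the 28 Hox genes with their whole body covered in all 10 libraries, cover could not differ. Leaving out 1 library separated 1 Hox gene in 3 cases, a share at or near the background of each. Hoxb3 was higher in KO without WT M1 replicate 2, with 5.19% of all genes, and without KO M1 replicate 1, with 7.23%. Hoxa2 was lower in M2 without WT M1 replicate 2, with 2.07% of all genes.

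The authors' deposited tables of differential regions hold 93 regions higher in KO and 49 higher in WT for M1, and 1049 higher in KO and 185 higher in WT for M2. None of these regions lay within 5 or 50 kb of a Hox cluster span. The nearest, in the authors' deposited table for M1 regions higher in KO, stood 497 kb from HoxA.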

How the data were processed

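H3K27me3 was measured in 10 macrophage libraries. HOMER 4.8, DiffBind 2.0.2, Bowtie2 2.4.2, deepTools 3.5.1 and the mm10 build are named in the submitters' processing notes. Per the file headers, HOMER findPeaks was run on each library in region mode with an FDR of 0.001. The window size was 1000 bp and the joining distance 2500 bp. Deposited regions could still stand closer than 2500 bp, as across a gap of 1.81 kb in HoxA of KO M1 replicate 1. The signal used is the authors' tag count of each region, normalised to 10 megatags (units of 1e6 tags) per the file headers. The authors' score was used to rank regions and the deposited region sizes to spread tags; the deposited ratio of clonal fold change was not used. The authors' deposited differential tables give log2 concentrations and fold with a p-value for regions of 401 bp, and only their positions were used.

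Gene bodies came from RefSeq (GRCm38.p6). Exons and untranslated regions were not analysed here. Of 39 symbols that match the choice, 1 is not reported here. Long regions hold their tags as 1 total, so a density inside a region assumes an even spread. Rows with any cover in at least 4 of 8 stimulated libraries were tested with limma 3.58.1 (R 4.3.3) on log2 values with a pseudocount of 1. Cover was compared by exact permutation, with 70 arrangements for state and 72 for genotype. Genes named singly were those under 50% cover in at least 1 library, the densest and least dense of each cluster, those past a test, and listed relatives, cofactors, activators and neighbours. The members and lists were chosen with earlier results of these data known. Tested on simulated data for the M2 against M1 comparison over 7195 rows, the fit found 70 of 200 genes changed by 1 on the log2 scale and 156 of 200 changed by 2. Alternatives covered the pseudocount, scaling, filters, region ranking, joining of gaps, the replicate block and leaving out each library. Python 3.11.15 with numpy 2.4.6, pandas 2.3.3 and scipy 1.17.1 was used.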

Additional observations from a re-analysis of the deposited data

Results flagged for a closer look

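In groups of 4 libraries, 1 library stood far from the others in 7 of 50 groups examined. The nominal rate of 1 in 20 is no guide here, because cover cannot pass 100% and many measures share regions. Of the M1 libraries, WT M1 replicate 2 was low in density over HoxA, at 34.3 tags per kb against 38.7 to 39.6, and over HoxC, at 31.3 against 39.4 to 40.7. Hoxa5 cover was 69.1% in WT M1 replicate 1 and 100% in the other M1 libraries. Of the M2 libraries, WT M2 replicate 1 had a Hoxa5 cover of 0% against 98.6% to 100%. Its first HoxA region stood at -1.03 kb, that is inside Hoxa2, against -0.55 to -0.52 kb, and its HoxB run reached 74.6 kb beyond Hoxb13 against 112 to 114 kb. The HoxD span was covered by 97.8% in KO M2 replicate 2 and by 100% in the other M2 libraries.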

How the results depend on the processing

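Counts of calls over all rows moved with the settings. Between M2 and M1, 16 calls became 9 with a pseudocount of 5, 57 with any region in 1 library as filter, 2 with the 50% cover filter, 42 when regions in the lower 50% by score were dropped and 7 when those in the lower 50% by tag density were. Between KO and WT, 3 became 1 when centred on the median row, 50, 0 and 27 under those filters and the score ranking. In M2, 10 became 2 when centred, 74, 0 and 40 likewise, and 24 by tag density. In M1, 0 became 6 when scaled to tags inside regions, 2 when centred and 4 with the loose filter. The replicate block, for numbers that the labels do not tie to shared cultures (same-number correlations from -0.105 to 0.348), gave 30 calls between M2 and M1, 2 between KO and WT, 0 in M2 and 0 in M1, with 0 Hox genes in each.

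The score ranking keeps long Hox regions in some libraries and drops them in others, with 13 to 36 Hox genes covered per library. It called 7 Hox genes between M2 and M1, 7 between KO and WT and 7 in M2, left 0 Hox genes covered in all 10 libraries and 176 genes separated by genotype where 312 were. Under it the Hox median was -1.17 between KO and WT and -0.0326 in M1, HoxA and HoxB differed by -1.59 and -0.92 between M2 and M1, HoxA, HoxC and HoxD by 4.53, -2.33 and -1.35 between genotypes in M2, and HoxC and HoxD by -0.0033 and -2.70 in M1. The median span cover was then 66.1% for HoxA, 70.3% for HoxB and 48.2% for HoxD, and the Hoxb4 stretch 152.7 kb. Centred on the median row, the Hox median was -0.0367 in M2 and -0.032 in M1, HoxB and HoxC were at -0.17 and -0.0367 in M2, and HoxD at -0.032 in M1. In whole windows HoxB was at 0.0432 in M1. With scaling added, HoxB and HoxD were at -0.0161 and -0.0264 between M2 and M1, HoxC at -0.0197 in M2, and HoxB and HoxD at 0.0344 and -0.0012 in M1. By promoter windows, 21 of 22 Hox genes were covered. The median run was 125.7 kb for HoxA and 282.3 kb for HoxC without joining, 274.8, 565.2 and 243.3 kb for HoxA, HoxB and HoxD with gaps of 5000 bp joined, and 132.6, 243.4 and 55.4 kb for HoxA, HoxC and HoxD by score. The ranking by tag density and the whole windows were chosen after seeing the data. The cause of these changes was not tested.

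Leaving out each stimulated library in turn gave 0 to 1808 calls between M2 and M1 (Hox genes 0 to 9, of which Hoxa5 was lower without WT M2 replicate 2), 0 to 2461 between KO and WT (0 to 21), 0 to 3387 in M2 (0 to 34) and 0 in M1. Genes separated by cover ranged from 282 to 1292 by state and from 355 to 789 by genotype, with 0 to 1 Hox genes. Between 35 and 36 Hox genes were covered in all libraries kept. The Hox median ranged from 0.26 to 0.46 between M2 and M1, 0.26 to 0.47 between KO and WT, 0.40 to 0.81 in M2 and -0.0497 to 0.114 in M1. Between M2 and M1 the spans ranged from 0.2052 to 0.496 for HoxA, 0.19 to 0.34 for HoxB, 0.26 to 0.46 for HoxC and 0.3602 to 0.4948 for HoxD. Between genotypes in M2 they ranged from 0.3616 to 0.9431, 0.3172 to 0.6157, 0.3989 to 0.809 and 0.6069 to 0.8761, and in M1 from -0.0179 to 0.1825, -0.1182 to 0.0134, -0.0246 to 0.3432 and -0.0497 to 0.1108, in the same order.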
